A study of Mus musculus with 18 samples.

Results

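Cytochrome P450 (Cyp) and flavin-containing monooxygenase (Fmo) genes were taken as all protein-coding rows of the count table whose symbol is Cyp or Fmo followed by a family number, and for Cyp also a subfamily letter and a member number. This rule gave 101 genes of 55385, of which 94 are Cyp and 7 are Fmo. The rule used names only and no measured value. Of the 101 genes, 53 passed the filter on low counts and were tested, 48 Cyp and 5 Fmo, 40 had counts but too few to test, and 8 had no count in any library.

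Whole kidneys of 18 mice aged 17.1 to 18.0 weeks were profiled by sequencing of polyA RNA. They formed 3 genotypes of 6 animals, each with 3 males and 3 females, and no treatment was given. The wild-type controls were of strain C57BL/6J. In Dp16 animals there is an extra copy of a part of chromosome 16 that matches much of human chromosome 21, and the strain serves as a model of trisomy 21. Dp16 2xIFNRs animals have that extra segment too, but the interferon receptor genes inside it are back at their usual copy number. The labels give no background strain for either duplication genotype. The duplication is present from conception and in every cell, so effects on the kidney and effects through other organs cannot be told apart in these data. The labels give sex and age for each sample and do not say which animals were littermates, so p-values measure the spread between these samples.

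P450 enzymes are heme proteins of the endoplasmic reticulum and mitochondria that use electrons from NADPH, passed on by P450 oxidoreductase or by adrenodoxin, to insert an oxygen atom into a substrate. Families 1 to 3 act mainly on drugs, dietary chemicals and arachidonic acid, family 4 on fatty acids, and others on bile acids, vitamin D, retinoic acid and steroid hormones. Fmo enzymes carry flavin in place of heme and oxygenate nitrogen and sulfur atoms. In kidney these enzymes sit mostly in the proximal tubule, and in mice many of them differ by sex.

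Library totals ranged from 42157790 to 57814587 counts. The 22 proximal tubule markers summed to 9986 to 12313 RPKM (reads per kilobase of gene, scaled to library size) in every library, with overlapping ranges in the 3 genotypes. Of these markers Miox rose in Dp16 and 2 fell, while in Dp16 2xIFNRs none rose and 2 fell. Macrophage markers were higher: 10 of 12 rose in Dp16 and 9 of 12 in Dp16 2xIFNRs, and their summed level was 88.3 to 144 RPKM in wild-type, 171 to 232 in Dp16 and 157 to 228 in Dp16 2xIFNRs. Of all genes tested, 3.17% rose and 1.06% fell in Dp16, and 3.17% rose and 1.61% fell in Dp16 2xIFNRs. The median log2 fold of the 22 tubule markers was -0.12 in Dp16, against -0.0086 over all genes. In Dp16 2xIFNRs it was -0.041, against 0.007. Of 10 fat markers Adipoq rose in Dp16, and Cidea and Ucp1 fell in Dp16 2xIFNRs. In whole tissue, fewer cells of a type and less RNA per cell cannot be told apart. Wild-type replicate 2 stood apart in P450 genes and some markers of liver, and wild-type replicate 5 in adrenal transcripts, so counts below are also given without these libraries. Of the 101 genes 1, Cyp2ab1 (GRCm38 chr16:20308387-20325404), lies on chromosome 16, outside the duplicated segment, and it had too few counts to test.

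The 101 genes together took 1.19% to 1.40% of all counts in male libraries and 0.586% to 0.670% in female libraries, so the sexes did not overlap. In males the share was 1.32 ± 0.0751% in wild-type, 1.25 ± 0.0603% in Dp16 and 1.33 ± 0.0635% in Dp16 2xIFNRs (mean ± SD, n = 3 each). In females it was 0.633 ± 0.00702%, 0.62 ± 0.0299% and 0.642 ± 0.0285%. Within each sex the 3 genotypes overlapped. In males 3 genes made up 64.9% of these counts: Cyp4b1, which activates furans and other lung and kidney toxicants, Cyp2e1, which oxidises ethanol, and Cyp2j5, an arachidonic acid epoxygenase. In females Cyp2j5 led with 18.9%, followed by Fmo1 with 11.5% and Cyp4a14, a fatty acid hydroxylase, with 10.7%.

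**Figure D1:**
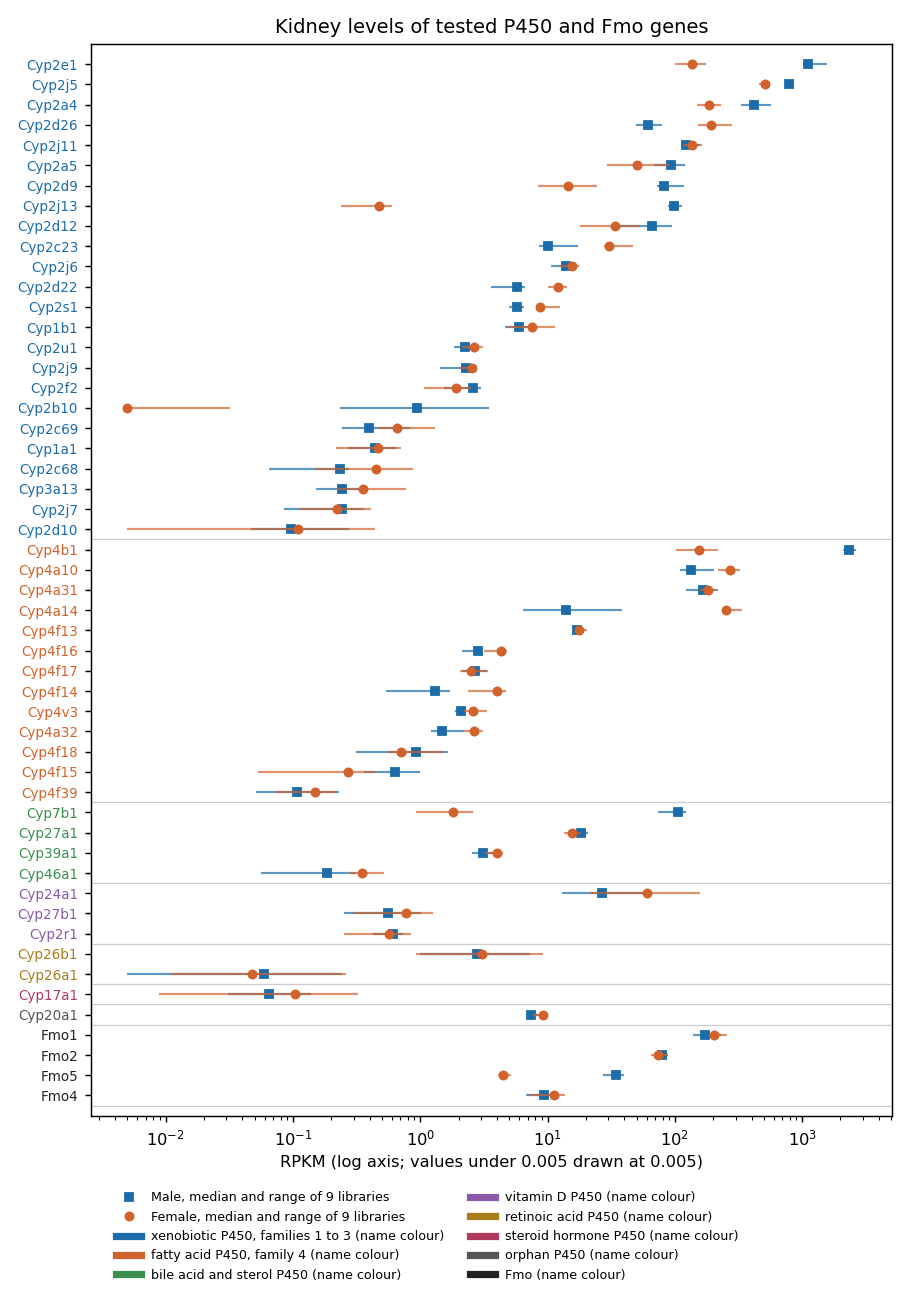
Each row is a tested gene, grouped by role and ordered by mean level within it. The horizontal log axis gives RPKM, squares and circles are medians of 9 male and 9 female libraries, and lines span the lowest to the highest. Cyp4b1 in males is the highest, with a median of 2339 RPKM, and Cyp2j13, Cyp7b1 and Cyp4a14 show wide gaps between the sexes.

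Many of these genes differed by sex. Of the 53 tested genes 15 were higher in males and 15 higher in females, 56.6% together. Over all 17575 genes tested, 19.0% were higher in males and 19.7% higher in females. A change is called where the adjusted p of edgeR's quasi-likelihood test, corrected over all 17575 genes by Benjamini-Hochberg, is under 0.05, and folds are log2 values with their SE.

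Among the genes higher in males, Cyp4b1 ranged from 2081 to 2648 RPKM in males (median 2339, n = 9) and from 103 to 217 in females (median 154, n = 9). The lowest male was far above the highest female, and the log2 fold was 4.08 ± 0.13 (edgeR adjusted p = 2.98e-15). Cyp2j13, a fatty acid epoxygenase of the same subfamily as Cyp2j5, ran from 88.3 to 113 RPKM in males and from 0.239 to 0.599 in females. This was the largest fold among the 53 genes, at 7.89 ± 0.16 (edgeR adjusted p = 1.81e-18), while Cyp2j5 itself, abundant in both sexes, differed by only 0.76 ± 0.04. Cyp7b1, an oxysterol hydroxylase of the acidic bile acid pathway, had 73.1 to 123 RPKM in males and 0.926 to 2.62 in females, a log2 fold of 6.00 ± 0.19. Cyp2e1 was at 1015 to 1567 RPKM in males and 99.7 to 176 in females, with a log2 fold of 3.26 ± 0.13. Fmo5, which acts on ketones and esters more than on amines, stood at 27.2 to 40.0 RPKM in males and 4.09 to 5.15 in females, with a log2 fold of 3.05 ± 0.07. None of these genes overlapped between the sexes. Cyp2d9, a steroid hydroxylase, had a log2 fold of 2.71 ± 0.20, Cyp2a4, a testosterone hydroxylase, one of 1.28 ± 0.08 and Cyp4f15 one of 1.53 ± 0.26. Cyp2b10, a target of the nuclear receptor CAR in liver, was low, with a highest value of 3.48 RPKM in males and 0.032 in females, and its log2 fold of 6.74 ± 0.51 rests on a female level near 0.

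The genes higher in females were led by Cyp4a14. It ranged from 243 to 337 RPKM in females (median 253, n = 9) and from 6.37 to 38.3 in males (median 14, n = 9), without overlap, and its log2 fold of males over females was -4.06 ± 0.28 (edgeR adjusted p = 5.74e-10). Its neighbours Cyp4a10 and Cyp4a32, fatty acid hydroxylases as well, had log2 folds of -0.77 ± 0.10 and -0.64 ± 0.11. Cyp4a31, next to them on chromosome 4, did not pass (log2 fold -0.02 ± 0.07, edgeR adjusted p = 0.848), with 122 to 219 RPKM in males and 159 to 206 in females. Cyp2d26 had a log2 fold of -1.61 ± 0.08, Cyp2c23, an arachidonic acid epoxygenase of the tubule, one of -1.51 ± 0.07 and Cyp2d22 one of -1.04 ± 0.07. Cyp4f14, which hydroxylates leukotrienes and vitamins E and K, had one of -1.64 ± 0.17, and Cyp2s1 one of -0.57 ± 0.07. Markers of the S3 segment, the last stretch of the proximal tubule, also differed by sex. Of 13 such markers 7 were higher and 5 lower in males, and they summed to 29863 to 41200 RPKM in males and 10587 to 18999 in females. Most of that sum is Kap alone, at 8476 to 37508 RPKM over all libraries (median 21727). The next marker by median, Acy3, was at 1162, so the summed level describes Kap more than the segment. The part of these markers in the sex differences of the P450 genes was not tested.

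**Figure D2:**
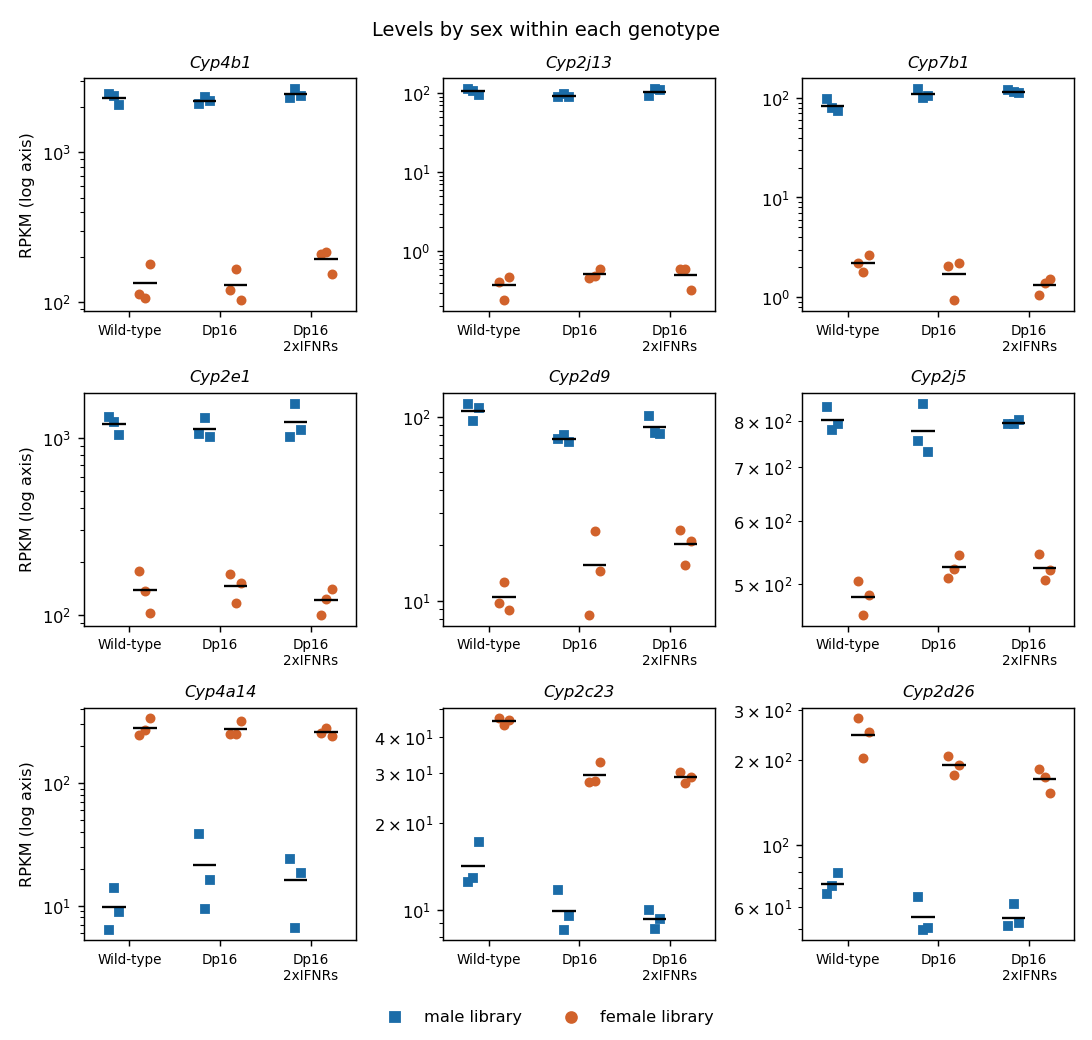
Each panel is 1 gene, the log axis gives RPKM, points are single libraries and black bars are the means of 3 libraries. Males lie above females in the first 6 panels and below them in the last 3, in every genotype.

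Promoter sequences were at hand in RefSeq (GRCm38.p6) for 78 of the 101 genes, each from 250 bases before to 50 bases after the start. Those of 4 genes that differed by sex are shown as examples. The first is of the most abundant male gene (Cyp4b1). Then come 2 genes of the Cyp2j subfamily with a small and a very large male excess (Cyp2j5 and Cyp2j13). The last is of a female-higher gene that also fell in both duplication genotypes (Cyp2d26). In this order the promoters lie at chr4:115647672-115647971, chr4:96664070-96664369, chr4:96077491-96077790 and chr15:82794196-82794495, all on the minus strand. Each is read 5′ to 3′ along its gene, and capitals mark matches, on either strand, to TTCNNNGAA (the palindrome bound by STAT factors), AGGTCA (a nuclear receptor half-site), AGAACA (a steroid receptor half-site) or GCGTG (the core of the Ah receptor element).
Cyp4b1: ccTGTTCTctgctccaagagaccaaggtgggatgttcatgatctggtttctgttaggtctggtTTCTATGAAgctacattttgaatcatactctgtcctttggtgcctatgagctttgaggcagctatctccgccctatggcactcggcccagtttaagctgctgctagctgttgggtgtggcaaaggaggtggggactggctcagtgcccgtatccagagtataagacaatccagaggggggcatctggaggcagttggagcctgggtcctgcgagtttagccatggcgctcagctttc
Cyp2j5: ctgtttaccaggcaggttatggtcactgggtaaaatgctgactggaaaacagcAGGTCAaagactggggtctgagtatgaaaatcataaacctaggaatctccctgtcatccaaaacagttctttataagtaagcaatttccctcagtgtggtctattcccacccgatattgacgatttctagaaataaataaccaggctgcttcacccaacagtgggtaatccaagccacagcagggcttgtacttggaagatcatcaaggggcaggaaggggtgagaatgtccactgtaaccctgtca
Cyp2j13: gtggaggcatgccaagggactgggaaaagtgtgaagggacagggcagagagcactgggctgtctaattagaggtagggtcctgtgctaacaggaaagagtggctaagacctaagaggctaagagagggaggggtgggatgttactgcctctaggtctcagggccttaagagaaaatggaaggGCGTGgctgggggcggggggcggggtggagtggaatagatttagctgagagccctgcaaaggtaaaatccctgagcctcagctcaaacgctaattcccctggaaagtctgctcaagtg
Cyp2d26: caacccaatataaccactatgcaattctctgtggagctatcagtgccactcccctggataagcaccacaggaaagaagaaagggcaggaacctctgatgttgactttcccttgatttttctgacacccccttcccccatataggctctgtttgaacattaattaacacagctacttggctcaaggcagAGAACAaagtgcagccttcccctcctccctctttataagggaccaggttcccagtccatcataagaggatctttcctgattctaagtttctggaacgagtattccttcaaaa
The window of Cyp4b1 holds a STAT palindrome and a steroid receptor half-site, that of Cyp2j5 a nuclear receptor half-site, that of Cyp2j13 an Ah receptor core and that of Cyp2d26 a steroid receptor half-site. Among 38 tested genes with a promoter in the table, 3 held the STAT palindrome (7.89%, against 8.30% of all 32851 promoters), 5 the nuclear receptor half-site (13.2% against 16.3%), 7 the steroid receptor half-site (18.4% against 19.0%) and 13 the Ah receptor core (34.2% against 32.4%). The nuclear receptor half-site was in 4 of the 13 male-higher genes and 0 of the 9 female-higher genes with a promoter. Cyp2a4 and Cyp2a5 are among these 4. Their windows are nearly identical, with the match in the same stretch, so they are not separate cases. The steroid receptor half-site was in 2 of 13 and 2 of 9, the Ah receptor core in 2 of 13 and 6 of 9, and the STAT palindrome in 1 of 13 and 0 of 9. In the 4 windows shown no matches overlap. A match is a description of these windows only.

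Dp16 was compared with wild-type to see how these genes, none of which lies in the extra segment, respond to it. In Dp16 kidneys 4 of the 53 tested genes rose and 3 fell. Cyp2c23, Fmo1 and Cyp2d26 fell, and Cyp4f18, Cyp2d12, Cyp1b1 and Cyp2d22 rose. Over all genes tested 3.17% rose and 1.06% fell, beside 7.55% and 5.66% of these 53. The median log2 fold of the 53 genes was 0.042, against -0.0086 over all genes. The count of 7 was 4 without wild-type replicate 1, without wild-type replicate 4 or without Dp16 replicate 3, and 7 without wild-type replicates 2 and 5 together. Without the sex term Cyp4f18 and Fmo1 alone of the 7 kept their calls.

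In Dp16 2xIFNRs kidneys 4 genes rose and 3 fell against wild-type. Cyp2c23, Fmo1 and Cyp2d26 fell, and Cyp2b10, Cyp4f18 and Cyp2d12 were among those that rose. Of all genes 3.17% rose and 1.61% fell, and the median log2 fold was 0.088 for the 53 genes and 0.007 over all. The count of 7 was 4 when wild-type replicate 1, wild-type replicate 3 or Dp16 2xIFNRs replicate 1 was omitted, 3 without wild-type replicate 4, and 8 without wild-type replicates 2 and 5 together. Here too Cyp4f18 and Fmo1 alone kept their calls without the sex term. Both comparisons use the same 6 wild-type animals, so the results for a gene are given side by side and are not independent of each other.

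**Figure D3:**
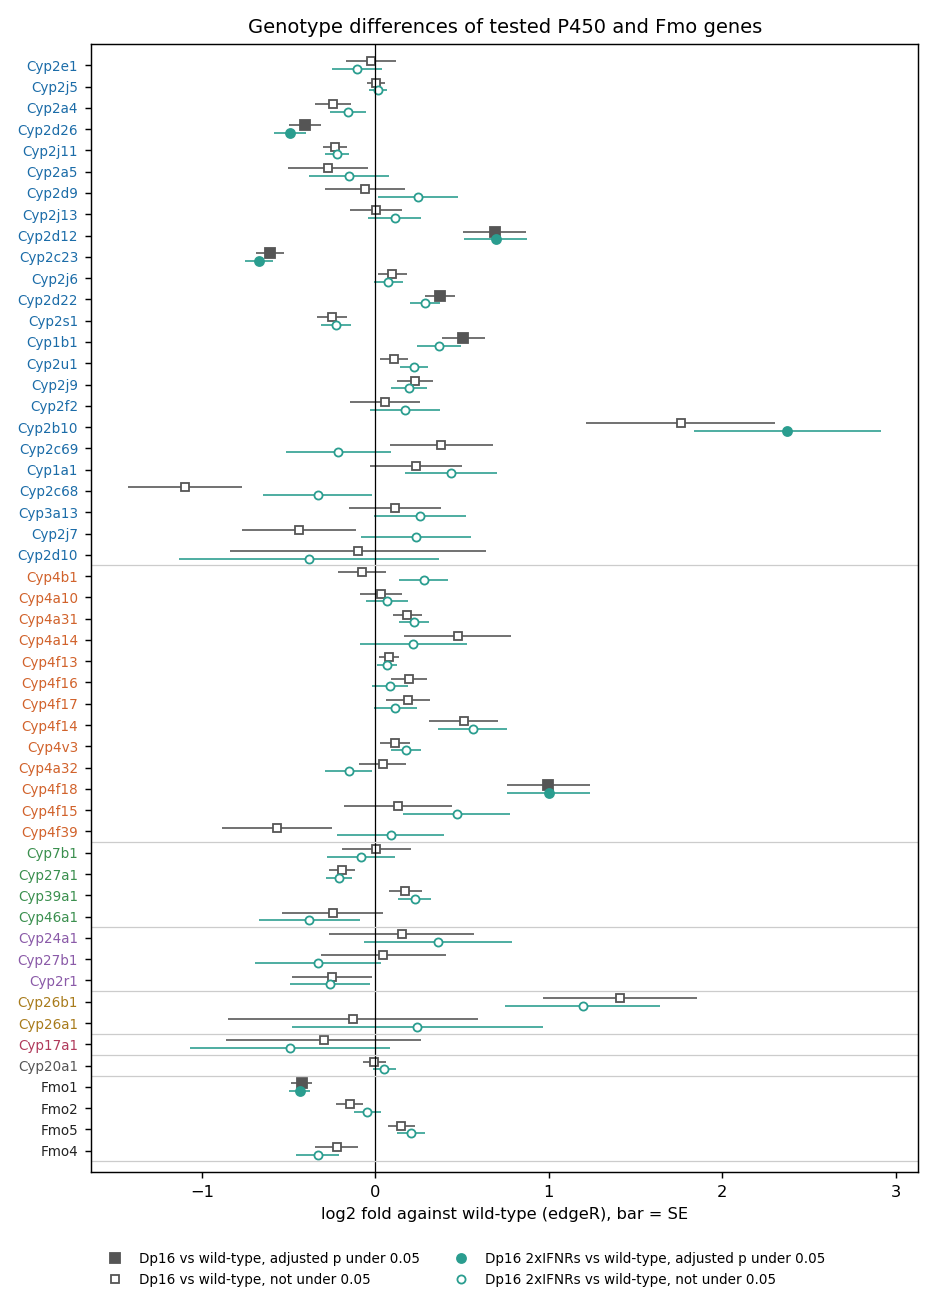
Rows are tested genes by role, the horizontal axis is the log2 fold against wild-type from edgeR, and bars are 1 SE. Squares are Dp16 and circles Dp16 2xIFNRs, filled where the adjusted p is under 0.05, as for Cyp2c23, Cyp2d26, Cyp2d12, Cyp4f18 and Fmo1 in both comparisons.

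Among the P450 enzymes of families 1 to 3, 24 genes were tested, and 3 rose and 2 fell in Dp16, while 2 rose and 2 fell in Dp16 2xIFNRs. Of all genes tested, 3.17% rose and 1.06% fell in Dp16, and 3.17% rose and 1.61% fell in Dp16 2xIFNRs. Cyp2c23 (ENSMUSG00000025197, GRCm38 chr19:44005022-44029208) makes epoxides of arachidonic acid that act on tubule sodium transport and vessel tone. Wild-type females had 46.6, 44.2 and 46.0 RPKM, Dp16 females 27.8, 28.1 and 32.7, and Dp16 2xIFNRs females 30.2, 27.7 and 29.1. Wild-type males had 12.5, 12.9 and 17.2 RPKM, Dp16 males 11.7, 8.52 and 9.47, and Dp16 2xIFNRs males 10, 8.53 and 9.27. In each sex all 3 animals of either duplication genotype lay below all 3 wild-type animals. Cyp2c23 fell by 0.61 ± 0.08 on the log2 scale in Dp16 (edgeR adjusted p = 0.000183, n = 6 per group) and fell by 0.67 ± 0.08 in Dp16 2xIFNRs (edgeR adjusted p = 6.26e-05). Both calls held with any 1 library left out, with adjusted p up to 0.00077 and 0.000328.

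Cyp2d26 (ENSMUSG00000022445, GRCm38 chr15:82790101-82794294), a member of the drug-metabolising Cyp2d cluster, was high in females. Wild-type females had 281, 203 and 251 RPKM, Dp16 females 207, 176 and 192, and Dp16 2xIFNRs females 186, 174 and 152. Wild-type males had 66.8, 71.5 and 79.1 RPKM, Dp16 males 65.1, 49.9 and 50.4, and Dp16 2xIFNRs males 51.2, 61.3 and 52.6. The animals of the duplication genotypes lay below the wild-type ones in each sex, except that 1 Dp16 female overlapped them. It fell by 0.41 ± 0.09 in Dp16 (edgeR adjusted p = 0.0143, n = 6 per group) and fell by 0.49 ± 0.09 in Dp16 2xIFNRs (edgeR adjusted p = 0.00347). Cyp2d11, its nearest copy, matched it in 82.7% of aligned bases.

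Of the other tested Cyp2d genes, Cyp2d12 rose in both comparisons and Cyp2d22 in Dp16, while Cyp2d9 and Cyp2d10 were called in neither. Cyp2d12 (ENSMUSG00000096852, chr15:82555072-82560403) had 39.6, 34.0 and 40.7 RPKM in wild-type males, 63.7, 89.8 and 71.7 in Dp16 males and 94.4, 73.9 and 66.4 in Dp16 2xIFNRs males, with no overlap. In females it had 18.1, 39.2 and 25.1 in wild-type, 33.9, 41.6 and 38.9 in Dp16 and 33.4, 25.3 and 53.2 in Dp16 2xIFNRs, which overlapped. Cyp2d12 rose by 0.69 ± 0.18 in Dp16 (edgeR adjusted p = 0.0364) and by 0.70 ± 0.18 in Dp16 2xIFNRs (edgeR adjusted p = 0.0314, n = 6 per group). The first call was lost with any of 9 libraries left out, wild-type replicate 1, 2, 3, 4 or 6 or Dp16 replicate 1, 3, 5 or 6 (adjusted p up to 0.0802). The second was lost with any of 7, Dp16 2xIFNRs replicate 1, 3 or 5 or wild-type replicate 1, 2, 3 or 4 (up to 0.0943). Cyp2d22 (chr15:82370527-82380260) rose in Dp16, from 3.60, 4.30 and 5.18 RPKM in wild-type males to 6.17, 6.18 and 6.60, and from 10.4, 12 and 10.1 in wild-type females to 11.7, 14.3 and 13.4, without overlap in males only. Its log2 fold was 0.37 ± 0.09 in Dp16 (edgeR adjusted p = 0.0175) and 0.28 ± 0.09 in Dp16 2xIFNRs (edgeR adjusted p = 0.0633). Cyp2d9, between them on chromosome 15 and 91.6% identical to Cyp2d12, had log2 folds of -0.06 ± 0.23 and 0.24 ± 0.23 and was called in neither comparison.

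Cyp1b1 (ENSMUSG00000024087, chr17:79701537-79715061) is a target of the Ah receptor that acts on steroids and retinoids and is known mainly from cells outside the tubule. It ranged from 4.60 to 6.62 RPKM in wild-type (median 5.38), from 5.15 to 10.2 in Dp16 (median 8.33) and from 5.13 to 11.5 in Dp16 2xIFNRs (median 7.03). Dp16 females, at 8.89, 10.2 and 9.14 RPKM, were all above wild-type females, at 6.34, 6.62 and 4.82, while 1 Dp16 male overlapped. Cyp1b1 rose by 0.51 ± 0.12 in Dp16 (edgeR adjusted p = 0.0244, n = 6 per group). That call was lost without wild-type replicate 1, 4 or 6, without Dp16 replicate 1, 3 or 5 (adjusted p up to 0.068), and without wild-type replicates 2 and 5 together. In Dp16 2xIFNRs the log2 fold was 0.37 ± 0.12 (edgeR adjusted p = 0.105). Cyp1a1, the other tested Ah receptor target of family 1, had log2 folds of 0.24 ± 0.27 and 0.44 ± 0.26, neither called.

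Cyp2b10 (ENSMUSG00000030483, chr7:25897620-25926624) was a male transcript at a low level. Wild-type males had 0.451, 0.481 and 0.236 RPKM, Dp16 males 0.822, 2.44 and 0.951, and Dp16 2xIFNRs males 1.19, 3.48 and 2.64, so both duplication genotypes lay above wild-type in males. In females the highest of 9 values was 0.032 RPKM. Cyp2b10 rose by 2.38 ± 0.54 in Dp16 2xIFNRs (edgeR adjusted p = 0.0131, n = 6 per group). The call was lost when Dp16 2xIFNRs replicate 3 or wild-type replicate 4 was omitted (adjusted p up to 0.0615), with DESeq2, with limma-trend on RPKM and without the sex term. In Dp16 the log2 fold was 1.76 ± 0.54 (edgeR adjusted p = 0.0736). Cyp2c68 and Cyp2j11, an epoxygenase relative of Cyp2j5, came close without passing in Dp16, with log2 folds of -1.10 ± 0.33 (edgeR adjusted p = 0.0632) and -0.23 ± 0.07 (edgeR adjusted p = 0.0614).

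Cyp2e1, Cyp2j5 and Cyp2a4, the family 1 to 3 genes with the highest mean RPKM, did not pass in either comparison. Cyp2e1 had log2 folds of -0.03 ± 0.14 in Dp16 and -0.10 ± 0.14 in Dp16 2xIFNRs, and Cyp2j5 had 0.01 ± 0.05 and 0.02 ± 0.05. Cyp2a4 had -0.24 ± 0.10 (edgeR adjusted p = 0.214) and -0.16 ± 0.10 (edgeR adjusted p = 0.455), with 570, 477 and 440 RPKM in wild-type males above the 373, 403 and 331 of Dp16 males. Cyp2a4 and Cyp2a5 share 98.2% of aligned bases, so the split of reads between them is uncertain.

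Of 13 tested fatty acid hydroxylases of family 4 only Cyp4f18 passed, in both comparisons. Over all genes tested, 3.17% rose in each comparison, and 1.06% fell in Dp16 and 1.61% in Dp16 2xIFNRs. Cyp4f18 (ENSMUSG00000003484, chr8:71988482-72009626) is known as the enzyme of neutrophils and other myeloid cells that hydroxylates leukotriene B4. Wild-type males had 0.412, 0.437 and 0.315 RPKM, Dp16 males 0.950, 1.02 and 0.940, and Dp16 2xIFNRs males 1.64, 0.920 and 0.913. Wild-type females had 0.560, 0.584 and 0.572, Dp16 females 0.733, 1.52 and 0.703, and Dp16 2xIFNRs females 0.641, 0.837 and 0.967. All duplication animals lay above all wild-type animals. Cyp4f18 rose by 1.00 ± 0.24 in Dp16 (edgeR adjusted p = 0.022) and by 1.00 ± 0.24 in Dp16 2xIFNRs (edgeR adjusted p = 0.0204, n = 6 per group), on 28 to 143 counts per library. The first call was lost without wild-type replicate 1 or 4 or Dp16 replicate 3 (adjusted p up to 0.0832), and the second when Dp16 2xIFNRs replicate 1 or wild-type replicate 1, 3 or 4 was omitted (up to 0.0609). The macrophage markers, whose summed level also lay wholly above wild-type in both genotypes, moved with it, and their part in its rise was not tested.

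The tubule hydroxylases of family 4 did not pass against wild-type. Cyp4b1 had log2 folds of -0.08 ± 0.14 and 0.28 ± 0.14, Cyp4a10 of 0.03 ± 0.12 and 0.07 ± 0.12, Cyp4a14 of 0.47 ± 0.31 and 0.22 ± 0.31, and Cyp4a31 of 0.18 ± 0.08 and 0.22 ± 0.08. Cyp4a10 and Cyp4a31 share 96.1% of aligned bases and Cyp4a32 shares 97.2% with Cyp4a10, so their counts can be split unevenly. Cyp4f14 had log2 folds of 0.51 ± 0.20 (edgeR adjusted p = 0.176) and 0.56 ± 0.20 (edgeR adjusted p = 0.125). In males it stood at 0.543, 0.615 and 0.925 RPKM in wild-type and at 1.02, 1.72 and 1.40 in Dp16, without overlap, while females overlapped.

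Among the Fmo genes, Fmo1 fell in both comparisons. Fmo1 (ENSMUSG00000040181, chr1:162829561-162866610), the main Fmo of mouse kidney, oxygenates amine and sulfur drugs. Wild-type males had 218, 213 and 229 RPKM, Dp16 males 173, 148 and 150, and Dp16 2xIFNRs males 173, 139 and 158. Wild-type females had 255, 243 and 235, Dp16 females 193, 190 and 215, and Dp16 2xIFNRs females 200, 203 and 190. In each sex no duplication animal reached the lowest wild-type animal. Fmo1 fell by 0.43 ± 0.06 in Dp16 (edgeR adjusted p = 0.000303, n = 6 per group) and fell by 0.44 ± 0.06 in Dp16 2xIFNRs (edgeR adjusted p = 0.000273), and both calls held with any 1 library left out (adjusted p up to 0.00153).

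Fmo2, at 65.4 to 87.8 RPKM, had log2 folds of -0.15 ± 0.08 and -0.05 ± 0.08, Fmo4 of -0.22 ± 0.13 and -0.33 ± 0.13, and Fmo5 of 0.15 ± 0.08 and 0.20 ± 0.08, none called.

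**Figure D4:**
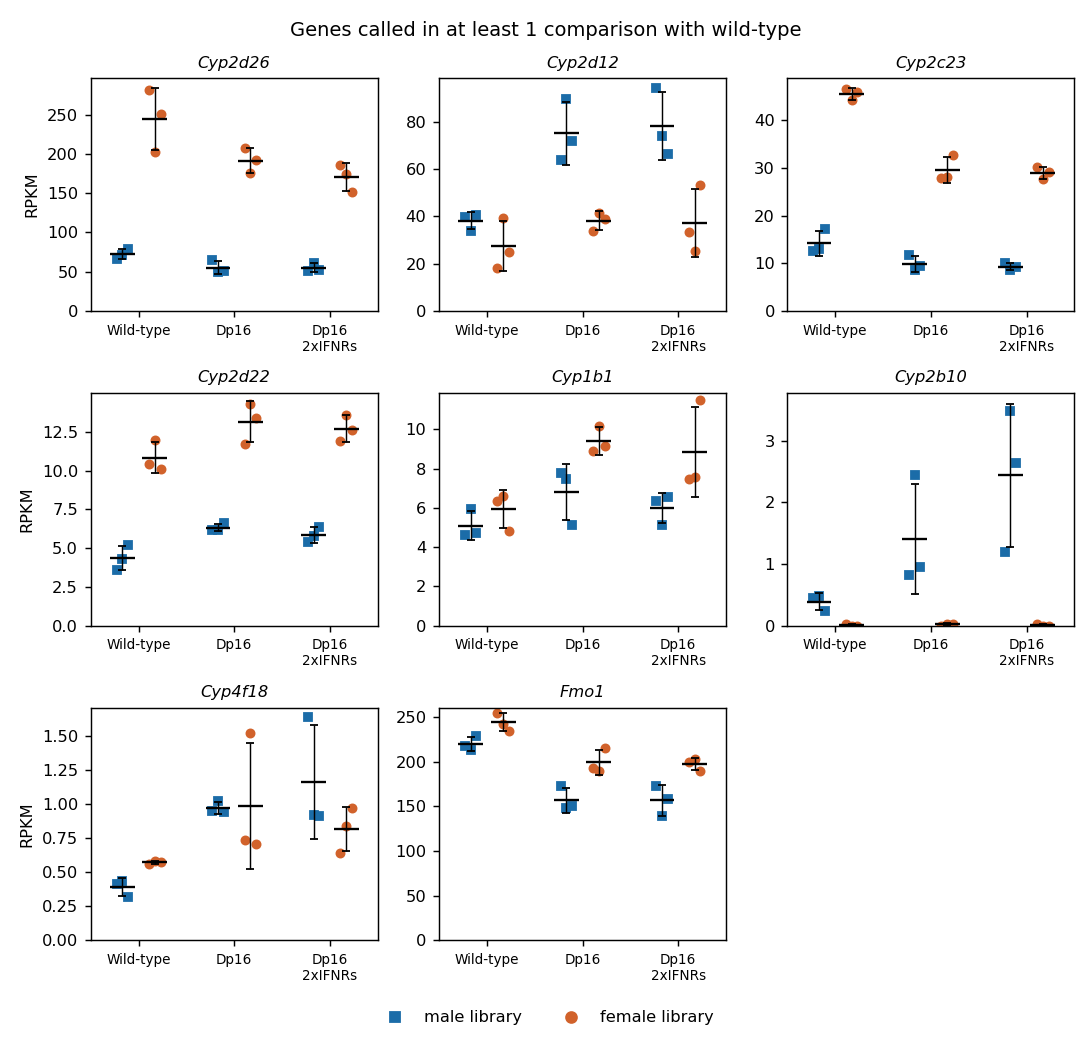
Each panel is a gene called against wild-type in at least 1 comparison, with RPKM on a linear axis from 0. Points are single libraries, black bars are means and whiskers SD of 3 libraries of 1 sex. Cyp2c23 and Fmo1 sit lower in both duplication genotypes in each sex, and Cyp4f18 sits higher.

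The P450 genes of bile acid and sterol metabolism held no call in either comparison with wild-type. The 4 tested were Cyp7b1, with log2 folds of 0.00 ± 0.20 and -0.08 ± 0.19, Cyp27a1, the mitochondrial sterol hydroxylase, with -0.19 ± 0.07 and -0.21 ± 0.07, Cyp39a1 and Cyp46a1. Cyp24a1, which breaks down the active form of vitamin D, is a tubule gene and varied widely between animals, from 13 to 159 RPKM. Its medians were 28.7 RPKM in wild-type, 37.4 in Dp16 and 30.5 in Dp16 2xIFNRs, and the groups overlapped (log2 folds 0.15 ± 0.42 and 0.36 ± 0.43). Cyp27b1, which makes the active form, was at 0.254 to 1.25 RPKM, with log2 folds of 0.05 ± 0.36 and -0.33 ± 0.36. Cyp2r1, the vitamin D hydroxylase known from liver, had -0.25 ± 0.23 and -0.26 ± 0.23. None of the 3 vitamin D genes passed.

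Cyp26b1, which clears retinoic acid, had a large fold in Dp16 without passing. It ranged from 0.925 to 2.81 RPKM in wild-type (median 1.44), from 1.07 to 7.28 in Dp16 (median 4.73) and from 1.26 to 9.17 in Dp16 2xIFNRs (median 2.94). In Dp16 5 of 6 animals, at 4.49 RPKM or more, were above every wild-type animal, and Dp16 replicate 5, at 1.07, was not. The log2 fold was 1.41 ± 0.44 in Dp16 (edgeR adjusted p = 0.078) and 1.2 ± 0.45 in Dp16 2xIFNRs (edgeR adjusted p = 0.14). Cyp26a1, its relative, had at most 0.26 RPKM and log2 folds of -0.13 ± 0.72 and 0.24 ± 0.72. Cyp17a1, a steroid hydroxylase of gonads and adrenal, was at most 0.323 RPKM and had log2 folds of -0.30 ± 0.56 and -0.49 ± 0.58.

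The comparison of Dp16 2xIFNRs with Dp16 asks whether the dose of the interferon receptor genes bears on these genes. None of the 53 was called by edgeR, while 2 had an unadjusted p under 0.05, and DESeq2 also called 0. Over all genes 0.0171% were called. The genes that fell against wild-type differed little between the duplication genotypes: Cyp2c23 had a log2 fold of -0.06 ± 0.08, Fmo1 of -0.01 ± 0.06 and Cyp2d26 of -0.09 ± 0.09. Among the genes that rose, Cyp4f18 had 0.00 ± 0.23, Cyp2d12 0.01 ± 0.18, Cyp2d22 -0.09 ± 0.09, Cyp1b1 -0.14 ± 0.12 and Cyp2b10 0.62 ± 0.49. The genes of smallest p were Cyp4b1 (0.36 ± 0.14), Cyp2c68 (0.76 ± 0.33) and Cyp2j7 (0.68 ± 0.33), each with an edgeR adjusted p of 0.85. Cyp2c68 is 98.0% identical to Cyp2c40 over its aligned bases. A gene called against wild-type in 1 duplication genotype alone, such as Cyp1b1, Cyp2d22 or Cyp2b10, is not shown to differ between them.

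Whether the genotype difference depends on sex was tested with an interaction term. No gene of the 53 passed for either genotype in edgeR, against 0.0171% of all genes for Dp16 and 0.00569% for Dp16 2xIFNRs, and 5 and 8 had an unadjusted p under 0.05. DESeq2 called 0 and 1. Cyp7b1 had the smallest p, with an interaction of 1.2 ± 0.30 in Dp16 2xIFNRs (unadjusted p = 0.000775 in edgeR, adjusted p = 0.505) and of 0.73 ± 0.29 in Dp16. Wild-type males had 96.9, 79.6 and 73.1 RPKM of it and Dp16 2xIFNRs males 121, 115 and 112, while wild-type females had 2.21, 1.80 and 2.62 and Dp16 2xIFNRs females 1.06, 1.39 and 1.53. The males were all higher and the females all lower than wild-type. Without Dp16 replicate 3, Cyp7b1 was called. Cyp2d9 had interactions of -1.10 ± 0.35 and -1.28 ± 0.35 (edgeR adjusted p = 0.558 and 0.662): the male to female log2 fold was 3.51 ± 0.27 in wild-type, 2.41 ± 0.26 in Dp16 and 2.23 ± 0.26 in Dp16 2xIFNRs.

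The Cyp11 and Cyp21 genes, which make corticosteroids in the adrenal cortex, are possible carry-over from the adrenal gland that lies on the kidney. None of them passed the filter. Cyp21a1 had 1337 counts in all libraries, of which 80.8% were in wild-type replicate 5, a female. Cyp11b1 had 742 with 81.8% there, Cyp11a1, which starts steroid synthesis, 447 with 66.9%, and Cyp11b2, the aldosterone synthase, 27 with 100%. Summed over the 4 genes, wild-type replicate 5 had 2013 counts, Dp16 replicate 1 had 245, wild-type replicate 3 had 155 and 7 libraries had 0. Their summed level was 15.5 RPKM in wild-type replicate 5, 2.07 in Dp16 replicate 1 and 1.16 in wild-type replicate 3. The adrenal cortex markers Star, which brings cholesterol into mitochondria, and Hsd3b1 were highest in the same library, at 7.14 and 10.3 RPKM, and next in Dp16 replicate 1, at 0.562 and 1.55. The cortex regulator Nr5a1 was at 0.29 RPKM in wild-type replicate 5 and at most 0.006 elsewhere. Of the other cortex markers Nr0b1, Hsd3b6, Mc2r and Akr1b7 were also highest in that library. Soat1, Fdx1, Scarb1 and Mrap were highest in other libraries. The whole list of 11 cortex markers, which also holds genes of tubule and fat, had 1 gene rise in Dp16 (Mrap) and 1 fall in Dp16 2xIFNRs (Star) and summed to 65.1 RPKM at most in wild-type, 58.9 in Dp16 and 51.2 in Dp16 2xIFNRs. Of 10 medulla markers 3 were tested, Ddc, Npy and Slc18a1, and none of these was called between genotypes. The others were too low to test, and of these Th, Dbh, Chga and Pnmt were at 0.15 RPKM or less in every library. No genotype comparison is drawn from the Cyp11 and Cyp21 genes.

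**Figure D5:**
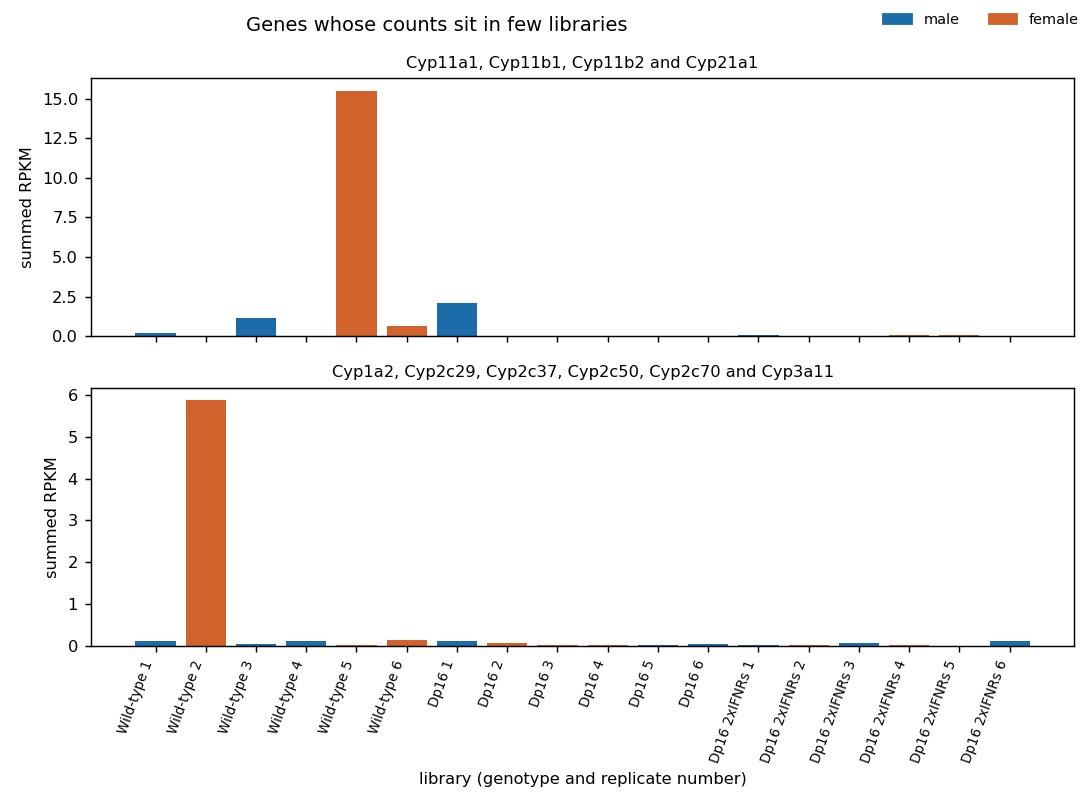
Bars are summed RPKM per library, blue for males and orange for females. The upper panel, 4 corticosteroid genes, peaks at 15.5 in wild-type replicate 5, and the lower panel, 6 P450 genes typical of liver, peaks at 5.87 in wild-type replicate 2.

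A second library stood apart in P450 genes known from liver, which were chosen for description after their values were seen. In wild-type replicate 2, a female, Cyp1a2, Cyp2c29, Cyp2c37, Cyp2c50, Cyp2c70 and Cyp3a11 had 567 counts together, and no other library had more than 17. Cyp2c37 and Cyp2c50, with 73 and 86 counts, and Cyp7a1, the first enzyme of bile acid synthesis, with 25, had counts in no other library. Of the genes too low to test, 17 had at least 50% of their counts in this library. Of 12 liver markers 6 were highest in this library, Alb, Apoa1, Apoa2, Ahsg, F2 and Serpina3k. Alb, albumin, was at 86.5 RPKM there and at most 17.9 elsewhere, and Apoa1 at 13.8 against at most 1.89. The other 6, Apoh, Fga, Fgb, Hp, Ttr and Mup20, were highest in other libraries. The whole list, in which Ttr reached 171 RPKM, summed to 78 to 234 RPKM in wild-type, 110 to 209 in Dp16 and 103 to 206 in Dp16 2xIFNRs. Its sum of 234 in wild-type replicate 2 was close to the 222 and 221 of wild-type replicates 1 and 4. Of 9 tested liver markers Alb fell in both comparisons with wild-type (log2 folds -1.26 ± 0.33 and -1.44 ± 0.33), which hold this library among the controls. In males, Alb was at 6.12 to 8.87 RPKM in wild-type, 2.9 to 4.22 in Dp16 and 3.1 to 5.09 in Dp16 2xIFNRs. In females, wild-type replicates 5 and 6 had 16.8 and 15.7 RPKM, Dp16 11.3 to 17.9 and Dp16 2xIFNRs 9.76 to 13.2. No tested Cyp or Fmo gene had 50% of its counts in either of these libraries. That follows largely from the filter, which removes genes whose counts sit in 1 library. The tested gene Cyp2d10 had 17.8% of its counts in wild-type replicate 2, its highest library.

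The 8 genes with no count, Cyp19a1 (aromatase), Cyp2c39, Cyp2w1, Cyp2g1, Cyp2b19, Cyp2c66, Cyp4a29 and Fmo6, were at 0 over 930101351 counts, which allows up to 0.00323 CPM each (3 counts in all, counting error only).

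Genes around the P450 system were described from lists of names. Beside these lists, 3.17% of all genes tested rose and 1.06% fell in Dp16, and 3.17% rose and 1.61% fell in Dp16 2xIFNRs. Of 10 electron donors 0 changed in either comparison. Por, the reductase that serves most P450 enzymes, had log2 folds of -0.32 ± 0.11 (edgeR adjusted p = 0.104) and -0.28 ± 0.11 (edgeR adjusted p = 0.159). Of 12 genes of heme synthesis and breakdown 0 changed in Dp16 and 1, biliverdin reductase Blvra, fell in Dp16 2xIFNRs, by 0.40 ± 0.10 (edgeR adjusted p = 0.0239). Of 31 regulators of P450 genes 2 fell in Dp16 and 1 in Dp16 2xIFNRs. The prolactin receptor Prlr fell by 1.69 ± 0.45 (edgeR adjusted p = 0.0398) and fell by 1.83 ± 0.45 (edgeR adjusted p = 0.0237), and was itself much higher in females (log2 fold of males over females -5.34, edgeR adjusted p = 3.54e-09). The clock output factor Hlf fell by 0.76 ± 0.19 in Dp16 (edgeR adjusted p = 0.0293) and had a log2 fold of -0.59 ± 0.19 in Dp16 2xIFNRs (edgeR adjusted p = 0.0918).

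Of 40 tested epoxide hydrolases and conjugating enzymes, which act on the products of P450 enzymes, 2 rose and 3 fell in Dp16, and 1 rose and 3 fell in Dp16 2xIFNRs. The glucuronosyltransferases Ugt1a7c (-0.69 ± 0.09 and -0.58 ± 0.09) and Ugt1a1 (-0.50 ± 0.12 and -0.65 ± 0.12) and the glutathione transferase Gsta2 (-0.43 ± 0.12 and -0.73 ± 0.12) fell in both, while Gsto1 rose in both (0.54 ± 0.12 and 0.47 ± 0.12) and Mgst2 in Dp16 (1.43 ± 0.40, edgeR adjusted p = 0.0496). Ugt1a7c and Ugt1a1 share exons of the Ugt1a locus, so their counts are not independent. Of 5 tested P450 genes whose symbols the rule misses, Cyp51, the demethylase of cholesterol synthesis, fell by 0.52 ± 0.09 in both comparisons (edgeR adjusted p = 0.00322 and 0.00274). Cyp4a12b rose by 0.65 ± 0.15 in Dp16 2xIFNRs (edgeR adjusted p = 0.0134).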

How the data were processed

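PolyA RNA from kidney was sequenced as strand-specific paired-end libraries, per the labels' protocols. Per the submitters' processing notes, the build was GRCm38, and the named tools include HTSeq 0.6.1 and HISAT2 2.1.0, besides SAMtools 1.5, bcl2fastq and FastQC 0.11.5, and the strand setting of the counting and the treatment of reads with several matches are not given in the sources used here. The authors deposited raw counts per gene. The authors also deposited RPKM values, and the counts and RPKM gave the same gene length in all libraries, within 0.1%, for 53 of 53 tested members. No 2 libraries were duplicates (lowest chi-square per degree of freedom 19.3 over 153 pairs).

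For testing, counts of all 18 libraries entered a single edgeR 4.0.16 quasi-likelihood model (R 4.3.3) with group and sex as terms, TMM normalization, and a filter by group (minimum count 10, minimum total 15). P-values are two-sided and adjusted over all genes tested. The SE of a log2 fold is its size divided by the square root of F and is approximate. RPKM values describe levels and were not the basis of calls. Coordinates are from GENCODE M21 (GRCm38), in which 101 of 101 members matched. Nearest copies were found with blastn 2.17.0 on transcripts, keeping alignments over at least 30% of the transcript. The edgeR fit of Dp16 against wild-type was tried on simulated counts, and the other steps were not.

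Named members were those called between genotypes, the 8 with the highest mean RPKM, the 8 largest rises and 8 largest falls by sex among called members whose average log2 CPM reached 0, the 3 of smallest p in each genotype comparison, the tested vitamin D, retinoic acid and steroid members, and the Cyp11 and Cyp21 genes. A member that this rule names is included in the counts but not reported here. Others are named as examples of their group. In other lists, up to 4 genes of smallest p are named. The members and the lists were chosen with earlier results of these data known, and markers cover proximal tubule, its S3 segment, adrenal cortex and medulla, macrophage, liver and fat.

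Alternatives were RLE size factors, no filter, a stricter filter (average log2 CPM from 1), no sex term, age as a term, DESeq2 1.42.0, fits of 2 groups or of 1 sex, the sample number as a block, limma-voom (limma 3.58.1) with the last number of the description as random effect, limma-trend on log2 RPKM (pseudocount 0.1), and omission of each library. Omission of wild-type replicates 2 and 5 together was chosen after seeing the data.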

Additional observations from a re-analysis of the deposited data

Results flagged for a closer look

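In groups of 6 animals, single libraries lay apart from their group on the log2 CPM scale in 11 of 110 groups checked over 42 genes. The 42 genes include the liver P450 genes, which were picked because their counts sat in wild-type replicate 2. Flags in those genes follow from that choice, and flags in the Cyp11 and Cyp21 genes rest on groups mostly near 0. Each group also mixes the sexes. The nominal rate of the rule, about 1 in 20, is therefore no measure for this count. Cyp1b1 was at 4.79 in Dp16 replicate 6, against 5.35 to 5.68 in the others, and Cyp26b1 at 2.60 in Dp16 replicate 5, against 4.54 to 5.31. Dp16 replicate 1 stood above its group in Cyp11a1 (0.363), Cyp11b1 (-0.0884) and Cyp21a1 (1.37), and wild-type replicate 5 in Cyp11b2 (-0.988). Wild-type replicate 2 stood above its group in Cyp1a2 (0.632), Cyp2c29 (1.08), Cyp2c37 (0.594), Cyp2c50 (0.825) and Cyp2c70 (0.146). In these genes the other libraries had few or no counts, drawn at -4.69 where the count was 0.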

How the results depend on the processing

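No named member changed direction with a call. Against wild-type, the count of 7 genes called in Dp16 was 10 without the filter on low counts, 10 with DESeq2, 2 without the sex term, 1 in females alone and 4 in males alone, and 4 to 9 when single libraries were omitted. The 7 were all among the 10 in both cases, while the 4 in males alone held 2 of the 7 (Fmo1 and Cyp2d12) besides Cyp2a4 and Cyp2d9. The count of 7 in Dp16 2xIFNRs was 8 without the filter and 8 with DESeq2, 4 with the filter at an average log2 CPM of 1, 2 without the sex term and 1 in females alone, and 3 to 8 when single libraries were omitted. Cyp2c23 lost both calls without the sex term and its Dp16 call in males alone, while its log2 fold ran from -0.67 to -0.55 in Dp16 and from -0.72 to -0.62 in Dp16 2xIFNRs over all alternatives run. Fmo1 lost both calls in females alone, and its log2 fold ran from -0.55 to -0.33 and from -0.56 to -0.34. The cause was not tested. The interaction count of 0 became 1 for Dp16 and 2 for Dp16 2xIFNRs without the filter on low counts, and for Dp16 2xIFNRs 1 with DESeq2, and 0 to 1 with 1 library left out (1 without Dp16 replicate 3). The count for Dp16 2xIFNRs against Dp16 was 0 under every alternative run, and that for sex ran from 26 to 34.

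The deviations of same-numbered animals correlated between -0.17 and 0.20 over 18 pairs, with 7 over 0.1. No baseline over differently numbered animals was taken, so this cannot tell whether sample numbers pair the animals. With the number as a replicate block, 9 genes were called in Dp16, 9 in Dp16 2xIFNRs, 0 between them and 26 between the sexes. Depth limits the low genes: Cyp4f18 and Cyp2b10 rest on at most 143 and 291 counts per library.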
